A study of Mus musculus with 4 samples.

Results

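Genes of the BCL2 family, which set whether a myeloid cell survives, were followed in CD11b+ mouse splenocytes in steady state and after GM-CSF treatment. The 10 genes, of 27998 in the count table, were selected from the list Bcl2, Bcl2l1, Mcl1, Bcl2a1a, Bcl2a1b, Bcl2a1d, Bcl2l11, Bax, Bak1 and Bbc3, and Bcl2 was picked on its lower level in P-I cells (CD115hi classical monocytes) of the GM-CSF library. The P-I values below are therefore a description and give no support to that choice. C57BL/6 mice aged 8 to 12 weeks were either left in steady state or injected once a day with 10 µg of GM-CSF, 3 times in all, and spleens were taken 24 hours after the last injection. CD11b+ cells were sorted by flow cytometry, and RNA and antibody tags were counted in the same cells (CITE-seq, a droplet method that reads messenger RNA and surface proteins together). Each condition was 1 library, of 4827 cells in steady state and 6804 cells after GM-CSF, so treatment and library cannot be told apart, cells are not replicates, and no p-value is given.

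Members of the BCL2 family meet at the outer mitochondrial membrane. Guardians such as BCL2, BCL-XL, MCL1 and A1 hold the effectors BAX and BAK in check, BH3-only proteins such as BIM and PUMA neutralise guardians or activate effectors, and freed effectors open pores that release cytochrome c and start the caspase cascade. Monocytes and neutrophils live briefly, neutrophils are known to depend on MCL1, and A1 is known as a target of NF-κB and of GM-CSF signalling in myeloid cells.

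Levels are given as CPM, the unique molecular identifiers (UMIs, 1 per captured RNA molecule) of a gene per 1000000 UMIs when all cells of a group are added up, with exact Poisson 95% intervals. A ratio of 2 groups had 0.5 UMIs added to each sum, and its 95% interval came from the binomial share of the counts. Both intervals cover counting error only. A gene was counted as higher or lower where its ratio was at least 2 or at most 0.5 and both groups together held at least 50 UMIs. The libraries held 22358903 and 35007567 UMIs, the cells' median was 3371 and 4916 UMIs, and 8 cell barcodes were found in both libraries. The authors' cell types and clusters were used as deposited. Marker genes went against 3 of them. The type named cDC2-A held NK cell genes at 18085 CPM in steady state and 18923 CPM after GM-CSF, against 19.8 and 15.9 CPM for cDC2 genes, and is called cDC2-A here only by its deposited name. The steady-state cells of MoMacDC_c4 (43 cells, against 595 after GM-CSF) held NK cell genes at 11214 CPM, against 0.349 CPM after GM-CSF, and so its libraries do not hold the same kind of cell. Cluster 11, deposited among the mononuclear phagocytes, held mature granulocyte genes at 4216 and 5546 CPM, against 1338 and 450 CPM for classical monocyte genes.

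The 3 members Bcl2a1a, Bcl2a1b and Bcl2a1d are near-identical copies of A1 on chromosome 9 (GRCm38, GENCODE vM21): Bcl2a1a at chr9:88956900-88962419 on the plus strand, Bcl2a1b at chr9:89199209-89207827 on the plus strand and Bcl2a1d at chr9:88723285-88731914 on the minus strand. The first 120 coding bases, in exon 1, are shown because they hold 7 of the 12 positions at which the 516 coding bases differ among the copies. Capitals mark those positions. The stretches lie at chr9:88957051-88957170, chr9:89199360-89199479 and chr9:88731600-88731719.
Bcl2a1a: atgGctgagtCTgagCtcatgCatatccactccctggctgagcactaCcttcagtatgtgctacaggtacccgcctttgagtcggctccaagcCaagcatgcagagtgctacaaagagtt
Bcl2a1b: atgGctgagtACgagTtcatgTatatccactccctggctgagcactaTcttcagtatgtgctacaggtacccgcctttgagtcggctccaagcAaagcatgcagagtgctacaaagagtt
Bcl2a1d: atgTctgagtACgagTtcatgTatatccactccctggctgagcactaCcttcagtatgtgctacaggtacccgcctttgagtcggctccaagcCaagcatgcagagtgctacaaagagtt

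The coding part of exon 2 lies nearest to the 3′ end, where this assay primes its reads, and its 96 bases differ at 1 position (capital). The stretches lie at chr9:88962172-88962267, chr9:89207582-89207677 and chr9:88723437-88723532. Of all stretches of 100 bases, the read length named in the labels, 43.5% in the Bcl2a1a transcript, 31.1% in Bcl2a1b and 54.7% in Bcl2a1d also occur unchanged in another copy. Among the last 300 stretches, at the 3′ end, these shares were 24.7, 28.7 and 53.3%. The transcripts are 98.2 to 99.1% identical over their aligned bases, so the split among copies is uncertain and their sum is given as well.
Bcl2a1a: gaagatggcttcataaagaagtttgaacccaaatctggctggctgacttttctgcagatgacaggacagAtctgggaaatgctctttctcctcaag
Bcl2a1b: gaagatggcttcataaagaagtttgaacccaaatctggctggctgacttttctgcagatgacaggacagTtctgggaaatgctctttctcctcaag
Bcl2a1d: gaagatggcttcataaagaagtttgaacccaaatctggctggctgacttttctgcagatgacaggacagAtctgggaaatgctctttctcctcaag

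Upstream of the copies, RefSeq promoter sequence (GRCm38.p6, 250 bases before to 50 after the start) held the letters GAGGAAGT, a form of the motif bound by the myeloid factor PU.1, in all 3 copies. Searched on both strands, these letters stood in 1052 of 32851 promoters (3.20%), and among the other members only in that of Bak1. The match is shown in capitals in 60 bases at chr9:88956796-88956855, chr9:89199105-89199164 and chr9:88731915-88731974, because all 3 copies hold it. Whether it bears on their levels was not tested. No binding was measured.
Bcl2a1a: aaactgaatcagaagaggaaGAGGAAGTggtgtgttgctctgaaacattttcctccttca
Bcl2a1b: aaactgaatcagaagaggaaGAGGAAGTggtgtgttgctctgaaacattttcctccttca
Bcl2a1d: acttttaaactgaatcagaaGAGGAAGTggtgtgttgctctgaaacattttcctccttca

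The remaining members lie apart in the genome. Bcl2 (chr1:106538178-106714274, minus strand) overlaps the antisense gene D630008O14Rik and, on its own strand, Mir3473f and the gene model Gm37053, Bak1 (chr17:27019810-27029009, minus) overlaps Ggnbp1 on the other strand, and Bax (chr7:45461697-45466898, minus) overlaps the gene model Gm45808 on its own strand. Bcl2l1 (chr2:152780668-152831728, minus), Mcl1 (chr3:95658788-95663176, plus), Bcl2l11 (chr2:128126038-128162547, plus) and Bbc3 (chr7:16308393-16318205, plus) overlap no annotated gene. Of the A1 copies, Bcl2a1b overlaps Gm29094 on its own strand and Bcl2a1d the antisense gene Gm10634, whereas Bcl2a1a overlaps none.

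Bcl2, the founding guardian, was highest in T cells, followed by cDC2-A, and low in granulocytes in both libraries. In steady state its level was 307 CPM in T cells, 305 in cDC2-A, 204 in MoMacDC_c5 (which held non-classical monocyte genes at 3221 CPM) and 161 in B cells. The monocyte and progenitor types followed at 38.0 CPM in MoMacDC_c1, 36.4 in progenitor DCs and 30.7 in MoMacDC_c2, 3 neighbours that lie close together, and neutrophils and granulocytes stood at 16.5 and 1.36 CPM. After GM-CSF the lymphoid levels were 350 CPM in T cells (ratio 1.15, 0.771 to 1.64), 203 in B cells (1.27, 0.898 to 1.75) and 287 in cDC2-A (0.965, 0.549 to 1.52), and all 3 intervals held 1. The other types were lower: MoMacDC_c5 at 71.6 CPM (ratio 0.358), progenitor DCs at 10.4 (0.287), MoMacDC_c2 at 4.19 (0.137), MoMacDC_c1 at 3.35 (0.0894) and neutrophils at 1.62 (0.102, from 18 and 8 UMIs). Granulocytes, with 5 and 3 UMIs, stood at 1.36 and 1.24 CPM.

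**Figure D1:**
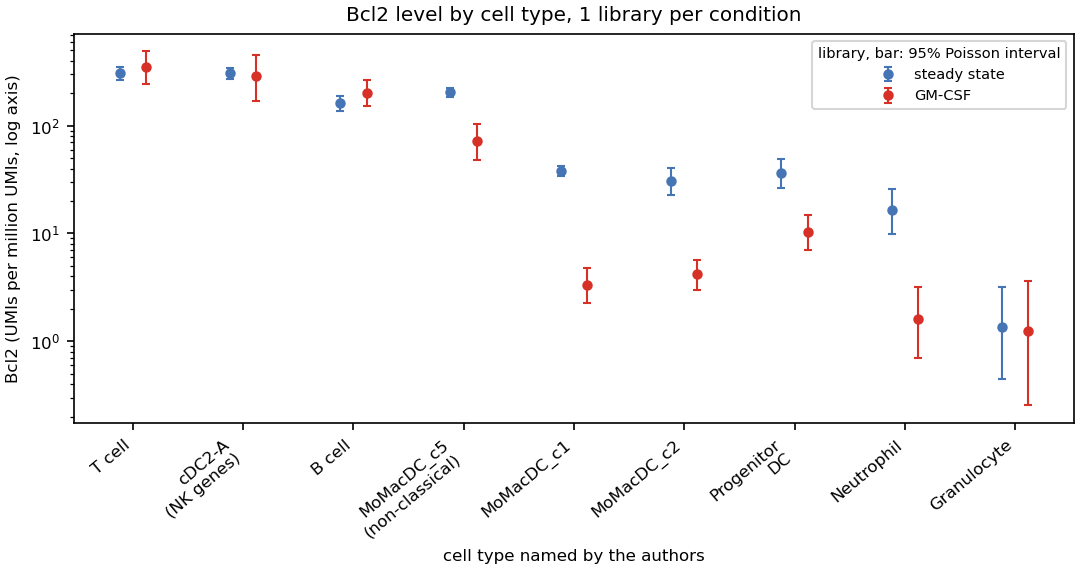
Bcl2 in counts per 1000000 UMIs (log axis) for 9 cell types named by the authors, in the steady-state (blue) and GM-CSF (red) library, with exact 95% Poisson intervals. T cells, B cells and cDC2-A overlap between the libraries, whereas MoMacDC_c1 stands at 38.0 against 3.35 CPM.

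In the P-I cells, the contrast that picked Bcl2, the gene stood at 51.3 CPM in steady state (56 UMIs in 139 cells, 38.7 to 66.6) and 1.43 CPM after GM-CSF (2 UMIs in 187 cells), a ratio of 0.0347 (0.00331 to 0.106). It was the fifth lowest ratio, rank 5 of 5774 genes with at least 50 UMIs. A UMI of Bcl2 was found in 31 of 139 steady-state cells (22.3%, exact binomial interval 15.7 to 30.1) and in 2 of 187 cells after GM-CSF (1.07%, 0.13 to 3.81). The cells had median depths of 7264 and 7232 UMIs. Thinned to 1000 UMIs per cell, 8 of 138 and 0 of 183 cells held 1, leaving out 1 and 4 shallower cells. Granulocytes, which should hold little Bcl2, showed 0% in steady state and 0.154% after GM-CSF at that depth, so the GM-CSF P-I level was not told apart from background.

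The P-I gate did not hold the same cells in the 2 libraries. Median tag counts were 899 and 105 for Ly6C, 11 and 171 for MHCII and 32 and 111 for CD115 in steady state and after GM-CSF. Of the marker lists, summed classical monocyte genes stood at 2445 and 878 CPM and neutrophil precursor genes at 14.6 and 245 CPM, with 2 of 5 (Elane and Mpo) and 1 of 5 (Mpo) at 0. Non-classical monocyte genes, the list of the high-Bcl2 type MoMacDC_c5, stood at 912 and 288 CPM, with 0 genes at 0 in both. B cell genes stood at 24.7 and 5.74 CPM, with 3 of 4 at 0 in both, T cell genes were at 0 in both, NK cell genes stood at 4.58 and 0 CPM, and the part of these lists in the result was not tested. In steady state 18 of the P-I cells were in cluster 11 and gave 19 of the 56 UMIs, and the ratio without clusters 11, 14 and 15 was 0.0473. A further 26 of the steady-state P-I cells were in cluster 6 and gave 0 UMIs. The most Bcl2 UMIs in 1 steady-state P-I cell was 9, so the level was not spread evenly over the gate. Weighting the steady-state clusters as in the GM-CSF cells left the steady-state level at 51.0 CPM, a value that rests on few cells. Clusters 7 and 8 held 30 and 22 of the GM-CSF P-I cells. In steady state they held 2 and 1 P-I cells, with 1 and 0 Bcl2 UMIs. The weighting therefore cannot decide the part of the cluster mix, which was not tested. Within cells in the G1 phase Bcl2 had 44 UMIs in 99 cells and 2 in 111 (ratio 0.0564), and in S phase 12 UMIs in 35 cells and 0 in 32.

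Within cells the choice had not used, the CD115- mononuclear phagocytes, Bcl2 stood at 61.9 CPM in steady state (838 UMIs, 1952 cells) and 5.60 CPM after GM-CSF (125 UMIs, 3256 cells), a ratio of 0.0909 (0.0745 to 0.109). These cells come from the same 2 libraries and are no replicate of the P-I values. Their makeup differed too: non-classical monocyte genes stood at 1148 and 169 CPM, NK cell genes at 377 and 4.39 CPM and B cell genes at 44.2 and 5.29 CPM, with 0 genes of these lists at 0, and the part of the lists in the result was not tested. The ratio was 0.117 without cluster 4, which held non-classical monocyte genes at 3306 and 1558 CPM, and 0.0998 without clusters 7 and 8. Over the whole set of 2135 and 3940 mononuclear phagocytes the ratio was 0.0904, at rank 85 from the lowest of 10860 genes. Leaving out clusters 7 and 8, whose steady-state cells held NK cell genes at 4898 and 11449 CPM, gave 0.0968.

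In all, 12 clusters had at least 20 cells in each library, clusters 7 and 8 among them, and 10 of these 12 held at least 20 Bcl2 UMIs. Bcl2 was lower after GM-CSF in all 10, and every interval lay below 1. Without clusters 7 and 8 this was 8 of 8. The clusters share the same 2 libraries and are no replicates. They also include the P-I cells that picked Bcl2, which gave 19 of the 97 steady-state UMIs of cluster 11. The share of all genes lower in every cluster was not computed. The ratios ran from 0.0119 in cluster 11 (97 and 0 UMIs, at least 13.98-fold lower by a floor of 3 UMIs in that cluster) to 0.361 in cluster 4 (401 and 29 UMIs). Besides the granulocyte genes given above, cluster 11 held neutrophil precursor genes at 13.4 and 1004 CPM and non-classical monocyte genes at 1316 and 153 CPM in steady state and after GM-CSF, and the part of these lists in its ratio was not tested. Non-classical monocyte genes also stood at 1389 and 358 CPM in cluster 2 and at 928 and 304 CPM in cluster 5, and their part was not tested. Cluster 4 was the highest in both libraries, at 207 and 73.5 CPM.

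**Figure D2:**
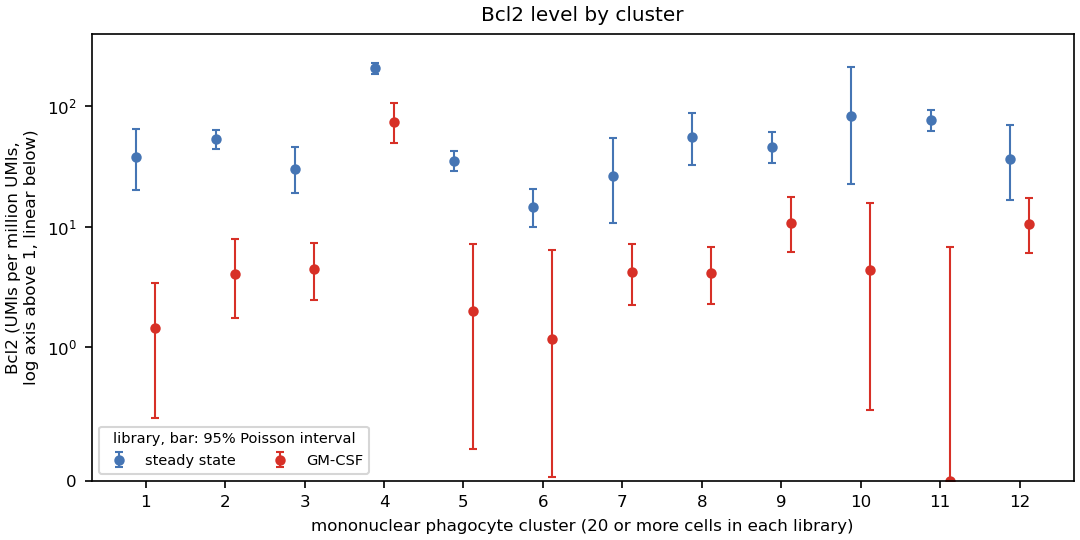
Bcl2 in counts per 1000000 UMIs (log axis above 1, linear below) for the 12 mononuclear phagocyte clusters with at least 20 cells in each library, with exact 95% Poisson intervals. GM-CSF values (red) lie below steady-state values (blue) in each cluster, with cluster 4 highest at 207 and 73.5 CPM and cluster 11 at 0 UMIs after GM-CSF.

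Mcl1, the short-lived guardian that holds BIM and BAK, was highest in granulocytes in both libraries and differed by less than 2-fold between the libraries. Its level was 2743 CPM in steady-state granulocytes and 2214 CPM after GM-CSF (ratio 0.807, 0.781 to 0.835). In neutrophils it stood at 422 and 435 CPM (1.03, 0.932 to 1.14). Mononuclear phagocytes held 930 and 647 CPM (0.696), and P-I cells 917 and 677 CPM (0.738, 0.675 to 0.808). The lowest of the 11 types compared were progenitor DCs at a ratio of 0.527 (783 and 413 CPM). Across the 10 clusters other than 7 and 8, 9 were lower and 1 higher, and 6 intervals lay below 1 and 0 above.

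Bcl2l1, which encodes the guardian BCL-XL, was sparsely counted. Mononuclear phagocytes held 9.90 and 6.09 CPM (148 and 165 UMIs, ratio 0.615), granulocytes 21.5 and 14.1 CPM (0.661) and neutrophils 18.3 and 10.9 CPM (0.588, 0.352 to 1.05). P-I cells held 9 and 6 UMIs, under the minimum. Not every group was lower: MoMacDC_c2 was at 0.994 (0.470 to 2.77) and progenitor DCs at 0.912 (0.369 to 2.72). Of the 6 clusters with at least 20 UMIs other than 7 and 8, 2 were higher and 4 lower. Of these, 1 interval lay below 1 and 0 above. Clusters 7 and 8, whose steady-state cells held NK cell genes, were at 0.289 and 0.286.

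The A1 copies, guardians that bind BH3-only proteins, were higher after GM-CSF in P-I cells, in granulocytes and in neutrophils, though not every copy in each. In P-I cells Bcl2a1a stood at 36.6 and 148 CPM (40 and 206 UMIs, ratio 3.99, 2.86 to 5.81). Bcl2a1b stood at 92.4 and 187 CPM (2.02, 1.60 to 2.57), and Bcl2a1d at 60.4 and 128 CPM (2.10, 1.58 to 2.85). As a sum the copies held 189 and 462 CPM (2.44, 2.08 to 2.87). The intervals of Bcl2a1b and Bcl2a1d reach below 2. In the other CD115hi subsets, with few steady-state cells, the A1 sum was not higher. It was at 0.554 (0.412 to 0.769) in P-III cells (GM-CSF-induced DC precursors, 12 and 126 cells). P-IV cells (GM-CSF-induced DCs, 7 and 313 cells) were at 0.764 (0.546 to 1.14). P-II cells (8 and 8) were at 0.670 (0.303 to 1.33) and the remaining CD115hi cells (17 and 50) at 0.600 (0.465 to 0.780). CD115- cells were at 1.59 (1.53 to 1.65).

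In granulocytes Bcl2a1a stood at 36.5 and 82.9 CPM (2.27, 1.82 to 2.85), Bcl2a1b at 53.9 and 137 CPM (2.54, 2.13 to 3.05) and Bcl2a1d at 15.2 and 21.5 CPM (1.42, 0.951 to 2.10). In neutrophils the steady-state counts were small: Bcl2a1a had 3 UMIs against 105 (6.66, 2.58 to 38.1) and Bcl2a1b 16 against 286 (3.84, 2.39 to 7.01). Bcl2a1d pointed the other way, with 9 and 18 UMIs (8.25 and 3.65 CPM, ratio 0.431, 0.189 to 1.12), under the minimum of 50. The sum was 2.29 times as high in granulocytes and 3.18 times as high in neutrophils.

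Among mononuclear phagocyte types, the A1 sum was 137 CPM in MoMacDC_c1 in steady state and 427 CPM after GM-CSF (3.12, 2.93 to 3.33). Progenitor DCs held 799 and 735 CPM (0.920, 0.853 to 0.993) and MoMacDC_c5 714 and 675 CPM (0.947, 0.827 to 1.08). Over all mononuclear phagocytes the ratios were 2.15 for Bcl2a1a, 1.37 for Bcl2a1b (142 and 195 CPM) and 1.51 for Bcl2a1d (91.3 and 138 CPM). Activated DCs, with 8 and 20 cells, held the highest level after GM-CSF, 1623 and 3197 CPM. Bcl2a1a was higher in 12 of 12 clusters, and in 10 of 10 without clusters 7 and 8, where 7 intervals lay above 1. The other copies did not rise in every cluster. Without clusters 7 and 8, Bcl2a1b was higher in 8 and lower in 2, and Bcl2a1d higher in 7 and lower in 3. The sum was higher in 8 and lower in 2, with 7 intervals above 1 and 1 below (cluster 12, ratio 0.714, 0.619 to 0.830).

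Bcl2l11, which encodes the BH3-only protein BIM, stood at 42.1 CPM in steady-state P-I cells and 100 CPM after GM-CSF (46 and 140 UMIs, ratio 2.37, 1.70 to 3.40). Granulocytes held 82.2 and 123 CPM (1.49, 1.27 to 1.76). Neutrophils held 7 and 83 UMIs (2.46, 1.22 to 6.72). With cells thinned to 1000 UMIs the neutrophil ratio was 0.962, so its direction rests on the depth used. Over all mononuclear phagocytes the ratio was 1.24 (59.6 and 74.1 CPM). The increase was not found in every cluster. Of the 10 clusters other than 7 and 8, 7 were higher and 3 lower, with 4 intervals above 1 and 1 below. The interval below 1 was in cluster 6 (0.642, 0.438 to 0.905), which held classical monocyte genes at 4437 CPM in steady state. Cluster 5 was at 1.13 (0.869 to 1.44).

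Bbc3, which encodes the BH3-only protein PUMA, was lower after GM-CSF in mononuclear phagocytes, at 56.6 and 25.4 CPM (846 and 689 UMIs, ratio 0.450, 0.406 to 0.498), and without clusters 7 and 8 the ratio was 0.488. In P-I cells it was 51.3 and 30.8 CPM (0.603, 0.395 to 0.911). The decrease was not found in every group: MoMacDC_c2 gave 1.03 (0.748 to 1.47), and of the 8 clusters with at least 20 UMIs other than 7 and 8, 6 were lower and 2 were not (1.002 in cluster 6 and 1.33 in cluster 3), with 3 intervals below 1 and 0 above. The neutrophil counts were 7 and 90 UMIs (2.67, 1.32 to 7.27) and granulocytes stood at 29.7 and 48.5 CPM (1.63, 1.25 to 2.14).

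Bax, an effector that forms the pore, was higher in granulocytes at 25.04 and 70.9 CPM (92 and 171 UMIs, ratio 2.82, 2.18 to 3.69). In neutrophils it stood at 31.2 and 46.8 CPM (1.48, 1.04 to 2.22), in P-I cells at 119 and 181 CPM (1.52, 1.22 to 1.89) and in mononuclear phagocytes at 121 and 186 CPM (1.54, 1.46 to 1.63). Each of the 10 clusters other than 7 and 8 had a ratio above 1, from 1.18 to 1.87, with 8 intervals above 1. Bak1, the other effector, had ratios of 1.12 in P-I cells (0.877 to 1.45), 1.33 in mononuclear phagocytes, 1.24 in granulocytes and 0.910 in neutrophils, all short of 2-fold.

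**Figure D3:**
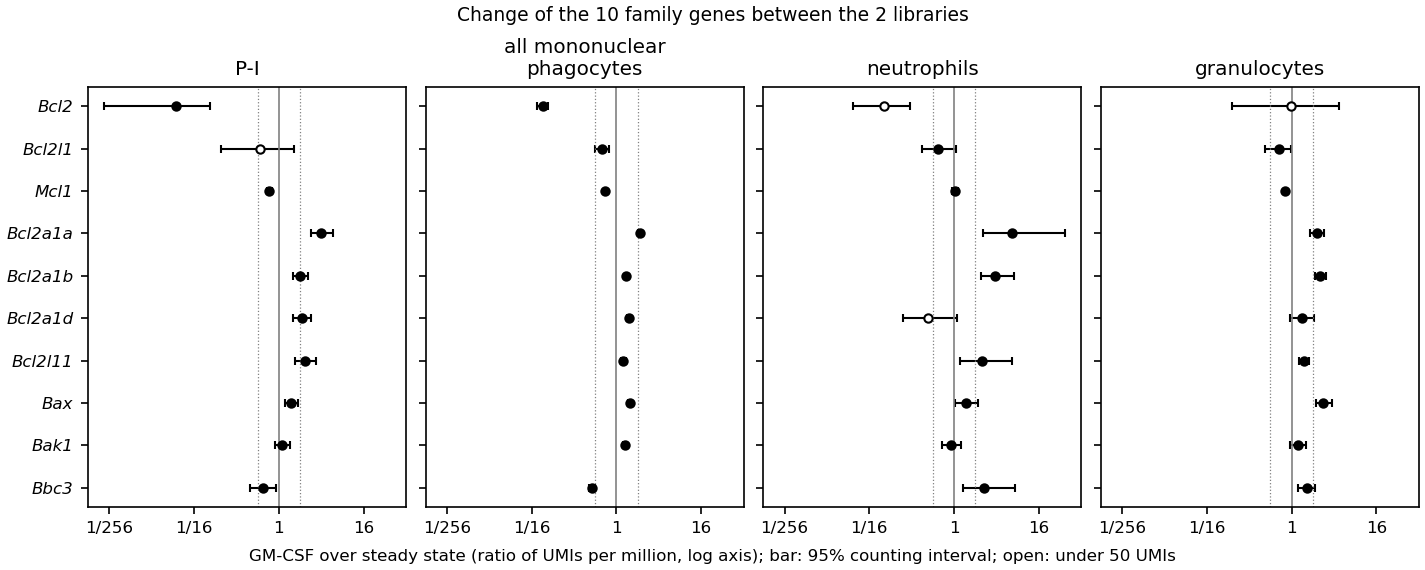
Ratio of GM-CSF over steady state for the 10 genes (log axis, 95% counting intervals, dotted lines at 0.5 and 2, open points under 50 UMIs) in P-I cells, mononuclear phagocytes, neutrophils and granulocytes. Bcl2 stands at 0.0347 in P-I cells and 0.0904 in mononuclear phagocytes, and Bcl2a1a at 3.99, 2.15, 6.66 and 2.27 in the 4 panels.

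By the 2-fold rule, 4 members were higher and 1 lower of 9 with enough UMIs in P-I cells, beside 4.99% of all genes higher and 7.12% lower in that contrast, from which nothing is read because it chose the list. In granulocytes 3 of 9 were higher and 0 lower, beside 7.29 and 3.2% of all genes. In neutrophils 4 of 8 were higher and 0 lower, beside 3.62 and 2.48%. In mononuclear phagocytes 1 of 10 was higher (Bcl2a1a) and 2 lower (Bcl2 and Bbc3), beside 8.66 and 9.46%. A member could pass the minimum through its higher group alone. Members' median ratios were 1.52 in P-I cells, 1.49 in granulocytes, 1.97 in neutrophils and 1.29 in mononuclear phagocytes, beside medians over all genes of 0.933, 1.08, 0.963 and 0.959. On the log2 scale these medians over all genes were -0.10 in P-I cells and 0.11 in granulocytes, and dividing by them changed no member's direction among those counted as higher or lower.

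Within the GM-CSF library, P-I cells, P-III cells (pre-GMiDCs) and P-IV cells (GMiDCs, GM-CSF-induced DCs) held similar levels of most members. Mcl1 stood at 677, 783 and 614 CPM in P-I, P-III and P-IV, Bax at 181, 211 and 163 CPM, and Bak1 at 113, 134 and 133 CPM. Bcl2l11 stood at 100, 110 and 74.7 CPM and Bbc3 at 30.8, 33.8 and 19.1 CPM, in each case lowest in P-IV (P-IV over P-III 0.680, 0.520 to 0.901, and 0.561, 0.338 to 0.967). Of the A1 copies, Bcl2a1a was at 148, 71.7 and 137 CPM, with P-III over P-I at 0.489 (0.352 to 0.659) and P-IV over P-III at 1.90 (1.43 to 2.62). Bcl2a1b was at 187, 143 and 173 CPM and Bcl2a1d at 128, 135 and 148 CPM. As a sum the copies held 462, 350 and 458 CPM. The ratio of the sum was 0.758 (0.653 to 0.876) for P-III over P-I and 1.31 for P-IV over P-III, both within 2-fold. Bcl2 had 2, 8 and 14 UMIs in 187, 126 and 313 cells and Bcl2l1 had 6, 5 and 11 UMIs, too few for the rule.

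For P-III over P-I, 0 members of 8 were higher and 1 lower (Bcl2a1a), beside 1.11 and 2.71% of all genes. For P-IV over P-III, 0 were higher and 0 lower of 8, beside 1.91 and 1.01%, and for P-IV over P-I 0 and 0 of 8, beside 3.63 and 3.53%. The Bcl2a1a value in P-III missed the 2-fold rule without called doublets. It rests on 1 copy, whose split from the other copies is uncertain, and the A1 sum was within 2-fold.

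**Figure D4:**
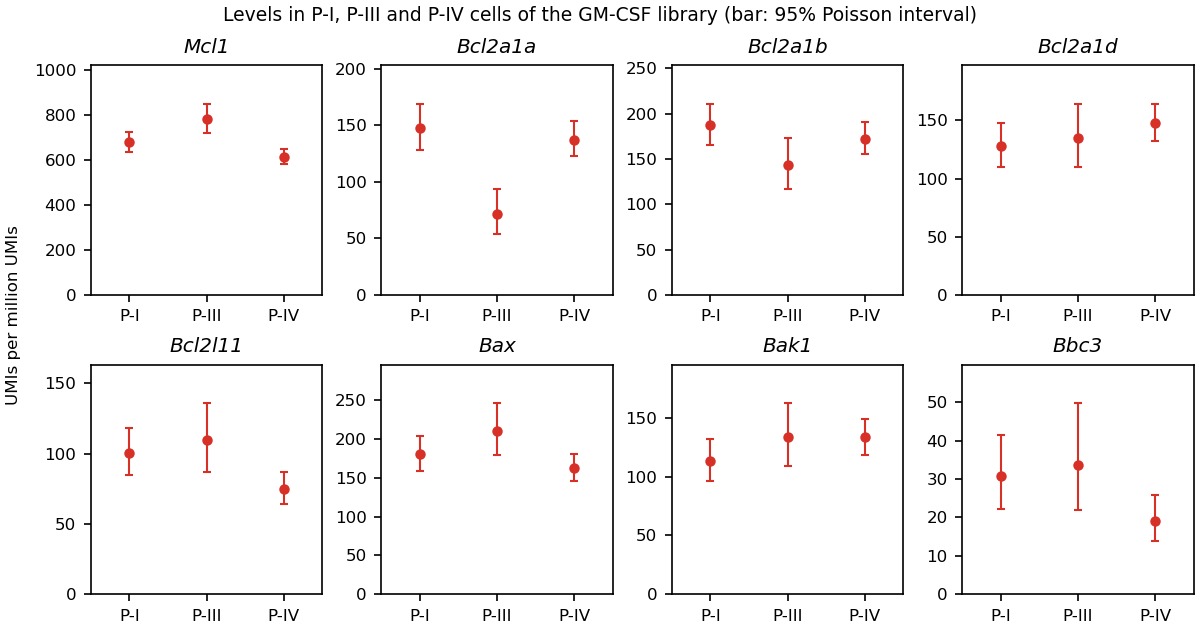
Levels in counts per 1000000 UMIs of 8 members in 3 CD115hi subsets (P-I, then P-III, then P-IV) after GM-CSF, with exact 95% Poisson intervals and axes from 0. Bcl2a1a is at 71.7 CPM in P-III, against 148 in P-I and 137 in P-IV, and Mcl1 is between 614 and 783 CPM. The A1 copies together held 350 CPM in P-III, against 462 in P-I and 458 in P-IV.

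Clusters 7 and 8, which hold cycling cells, were compared with clusters 0, 1, 3, 5 and 10 in the GM-CSF library (722 and 2148 cells). Of 10 members, 0 were higher and 0 lower, beside 7.61 and 4.46% of all genes. Bcl2a1d came nearest to the rule at 75.9 against 151 CPM (ratio 0.501, 0.454 to 0.552). Bbc3 stood at 17.2 against 30.1 CPM (0.572), Mcl1 at 552 against 725 CPM (0.762), and Bcl2 at 4.15 against 3.71 CPM (1.13, 0.676 to 1.82). The ratio was 0.585 for Bcl2a1b, 0.728 for Bcl2a1a, 0.708 for Bcl2l11, 0.873 for Bax, 0.858 for Bak1 and 1.17 for Bcl2l1 (0.797 to 1.69).

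Granulocytes, the mature cells, and neutrophils, the type with precursor granule genes, differed in several members in both libraries. Neutrophils held neutrophil precursor genes at 88780 CPM in steady state and 72701 CPM after GM-CSF, against 38.6 and 517 CPM in granulocytes. Mcl1 was 6.50 times as high in granulocytes in steady state (5.93 to 7.16) and 5.09 times after GM-CSF (4.85 to 5.36). Bcl2l11 was 11.98 times (6.14 to 32.1) and 7.26 times as high (5.70 to 9.42). Bbc3 was 4.34 and 2.66 times as high, Bcl2a1a 11.4 and 3.89 times and Bcl2a1b 3.57 and 2.37 times. Bcl2a1d was 1.77 times (0.907 to 4.25) and 5.80 times as high (3.40 to 10.7). Bcl2 was under the minimum, with 5 UMIs in granulocytes and 18 in neutrophils in steady state and 3 and 8 after GM-CSF. Bcl2l1 (1.15 and 1.29), Bax (0.796 and 1.52) and Bak1 (0.728 and 0.990) stayed within 2-fold. Of 9 members in each library, 5 were higher and 0 lower in steady state, beside 27 and 13.6% of all genes, and 6 and 0 after GM-CSF, beside 25.4 and 14.9%. The median ratio of all genes was 1.26 and 1.29 (0.34 and 0.37 on the log2 scale), and of the members 3.57 and 2.66.

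**Figure D5:**
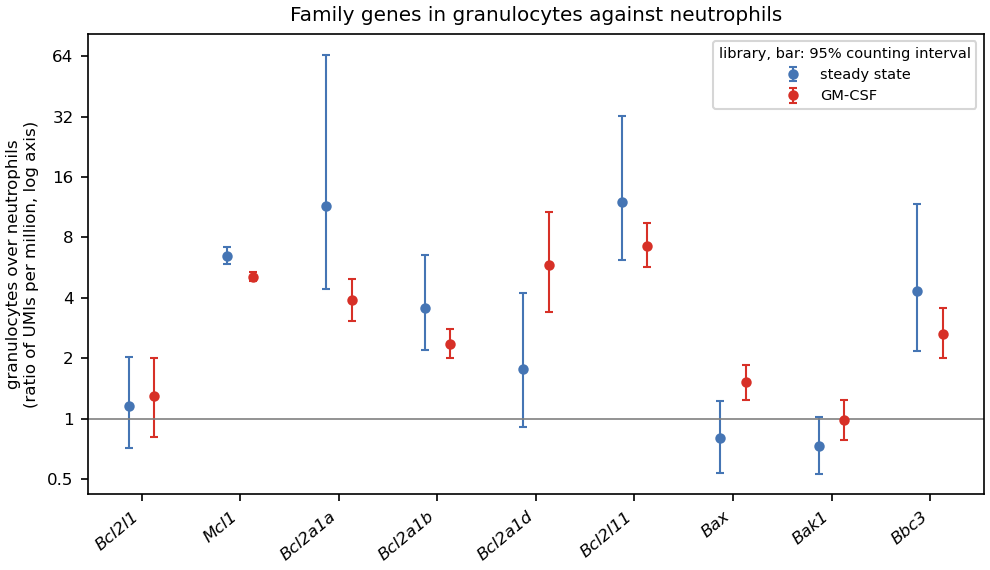
Ratio of granulocytes over neutrophils (log axis, 95% counting intervals) for 9 members in the steady-state (blue) and GM-CSF (red) library. Mcl1 stands at 6.50 and 5.09 and Bcl2l11 at 11.98 and 7.26, whereas Bak1 stands at 0.728 and 0.990.

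Of 46 other genes of the pathway, 35 had enough UMIs in P-I cells, and 3 were higher and 2 lower after GM-CSF, beside 4.99 and 7.12% of all genes. In granulocytes 3 of 34 were higher and 1 lower (7.29 and 3.2% of all genes), in neutrophils 0 of 32 were higher and 0 lower (3.62 and 2.48%), and in mononuclear phagocytes 3 of 42 were higher and 3 lower (8.66 and 9.46%). In P-I cells the caspase Casp6 was higher (16 and 83 UMIs, ratio 3.96), as were the channel Vdac1 (2.14) and Birc5 (2 and 260 UMIs, ratio 81.6, 27.9 to 846), a survivin gene expressed by dividing cells. Bid, a BH3-only gene cut by caspase-8 (0.487), and the kinase gene Pim1 (0.484) were lower. In granulocytes Casp6 (5.31), Vdac3 (2.38) and Trp53, which encodes p53 (2.02), were higher and Pim1 was lower (0.401, 5285 and 1391 UMIs). In mononuclear phagocytes Casp6 (3.54), Birc5 (8.09) and Myc (2.88) were higher, and Pmaip1, which encodes the BH3-only protein NOXA (0.497), Pim1 (0.427) and Stat3 (0.486) were lower.

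Between granulocytes and neutrophils, the BH3-only genes Pmaip1 (9.11 and 53.7 times), Bid (5.83 and 3.46) and Bmf (5.44 and 10.2) were higher in granulocytes in steady state and after GM-CSF. Pim1 was 11.6 and 8.05 times as high, and Birc5 was lower, at 0.00329 and 0.0181. Of the 16 regulators of the family, 14 had enough UMIs in each library. In steady state 9 were higher in granulocytes and 1 lower, beside 27 and 13.6% of all genes, and after GM-CSF 8 and 0, beside 25.4 and 14.9%. Within the monocyte series, Birc5 was lower in P-III than P-I (0.373), Myc was higher in P-IV than P-I (2.22), and clusters 7 and 8 had Birc5 at 189 times and Bmf at 0.453 times the level of the other clusters.

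Over the 23 groups of cell type by library, the genes with the pattern most like that of Bcl2 among 9751 were Pus3 (Pearson r = 0.892), Tspyl3 (0.877) and Ahdc1 (0.877), taken as a description across groups that share 2 libraries and differ in depth. For Mcl1 they were Myadm (0.886), Trim25 (0.882) and Samhd1 (0.876), for Bcl2l11 Prex1 (0.737), Gadd45b (0.670) and Map2k2 (0.663), and for the A1 sum Dok1 (0.852), Hmg20b (0.806) and Nostrin (0.796).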

How the data were processed

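The deposited RNA tables hold raw counts, UMIs per gene and cell, and the antibody tag table holds raw tag counts. The authors made them from 10x Chromium Single Cell 3′ v3 libraries with Cell Ranger 3.0.2 on mm10 and a tag counter, and with Seurat 3.6.0 kept cells of 200 to 5000 genes and at most 15% mitochondrial UMIs, a percent deposited for each cell. Integration, clusters, cell types, cycle phases and the CD115hi subsets gated on tags are the authors' labels. 27998 genes were listed, 11100 of them without a UMI, and counts in the full and the mononuclear phagocyte table were equal for the cells they share. The tag table of the other cell types was not used here.

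Counts were summed over the cells of each group, with 1 library per condition, using Python 3.11.15, numpy 2.4.6, scipy 1.17.1, pandas 2.3.3, scanpy 1.11.5 and matplotlib 3.10.9. The interval, the 2-fold rule and the thinning (seed 20) were tested on simulated data. Doublets called per library with Scrublet (152 of 4827 steady-state and 186 of 6804 GM-CSF cells) were kept, and left out as an alternative. Named genes were the 10 members, genes past 2-fold in 6 lists of pathway genes, and the 3 genes most like Bcl2, Mcl1, Bcl2l11 and the A1 sum. The members and lists were chosen with earlier results of these data known. Alternatives were the median-of-ratios scaling, other minimum counts, thinning, equal weight per cell, a 10% mitochondrial limit, G1 cells alone and a 1.5-fold rule. Alignment reads near-identical A1 copies apart only where they differ.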

Additional observations from a re-analysis of the deposited data

Results flagged for a closer look

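For 4 members the ratio of GM-CSF over steady state pointed opposite ways in 2 cell types, with both counting intervals off 1 and at least 10 UMIs in each library. The difference itself was not tested, since each condition was 1 library. Mcl1 was at 1.55 in MoMacDC_c4, whose steady-state cells held NK cell genes at 11214 CPM, and at 0.527 in progenitor DCs. Bcl2a1b was at 3.84 in neutrophils (16 and 286 UMIs) and 0.879 in progenitor DCs. Bcl2a1d was at 3.01 in MoMacDC_c1 and 0.547 in MoMacDC_c5. Bbc3 was at 1.63 in granulocytes and 0.551 in MoMacDC_c1.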

How the results depend on the processing

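No paired analysis was possible because each condition was 1 library. The Bcl2 ratio in P-I cells stayed below 1 under every alternative run, between 0.0270 and 0.0564. Because that contrast picked Bcl2, this gives no support to the choice. The cause of the shifts below was not tested. The count of members past 2-fold moved as follows. A minimum of 200 UMIs left 3 in P-I cells, 1 in neutrophils and 3 in granulocytes over neutrophils in steady state. Thinning to 1000 UMIs, which lowers the counts that must reach 50, left 0 in P-I cells, 1 in neutrophils, 0 in P-III over P-I and 1 in clusters 7 and 8. Without a minimum there were 2 in P-III over P-I and 1 in P-IV over P-I. Equal weight per cell and leaving out called doublets each gave 0 in P-III over P-I and 1 in clusters 7 and 8, and the 10% mitochondrial limit gave 1 in clusters 7 and 8. The 1.5-fold rule gave 5 in granulocytes, 6 in mononuclear phagocytes, 2 in P-IV over P-III, 1 in P-IV over P-I and 3 in clusters 7 and 8. Only Bcl2l11 in neutrophils changed direction, to 0.962 with thinned cells. Leaving out clusters 11, 14 and 15, cluster 4, clusters 7 and 8, or cells with a lymphocyte marker UMI was chosen after seeing the data and moved no count by over 1.5 times. The ratios themselves did depend on these choices. Of the ratios, 5 of 11 were scored as moved without cluster 4 and 3 of 11 without clusters 7 and 8. Without clusters 11, 14 and 15 this was 3 of 20, and without cells with a lymphocyte marker UMI 1 of 19. In each case 0 were reversed. G1 cells alone could not be run for granulocytes and neutrophils, for which no phase was used. Low counts limit Bcl2l1 in P-I cells and Bcl2 in granulocytes.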

Other observations

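The cDC2-A cells of the GM-CSF library (20 cells) held mature granulocyte genes at 2455 CPM and neutrophil precursor genes at 2614 CPM, against 268 and 19.8 CPM in the steady-state library (214 cells). In the same cells Bak1 had 0 UMIs after GM-CSF and 62 in steady state, at least 1.51-fold lower by a floor of 3 UMIs in that type. Bcl2a1a had 0 UMIs in the steady-state MoMacDC_c4 cells and 515 after GM-CSF, at least 13.4-fold higher by the same floor, beside the NK cell genes of those steady-state cells.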
